A study of Mus musculus with 12 samples.

Results

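The 34 genes described here serve glycolysis, its lactate outlet and the response to low oxygen, and were picked by gene symbol out of 32285 genes in the count files, with no measured value in the rule but with earlier results of these data known. Grouped by role, they held 2 glucose transporters, 9 genes of upper glycolysis, 5 of lower glycolysis, 4 of lactate production and export, 2 activators of the pathway at the phosphofructokinase step (PFKFB), 2 pyruvate dehydrogenase kinases (PDK), 3 genes of the hypoxia-inducible factor (HIF) system and 7 further genes that hypoxia is known to induce or that were listed with them. 1 symbol, Aldoa, stands for 2 gene identifiers, so the files held 35 entries for the 34 genes. All were followed in CD8 T cells of NOD/ShiLtJ (NOD) mice, a strain that develops autoimmune diabetes without any induced lesion, transgene or treatment.

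The animals were prediabetic females, euthanized at 10 to 15 weeks of age. In each of 2 rounds, islets and spleens of 10 mice were pooled before sorting, so no cell can be traced to a mouse and each group held 2 libraries. CD45.1+ CD8 T cells lacking CD4, B220 and CD11b were sorted with a Kd tetramer that carried NRP-V7, a mimotope of a peptide of the beta cell protein IGRP. The groups were tetramer-negative islet cells (islet IGRP-), tetramer-positive islet cells (islet IGRP+) and tetramer-positive spleen cells (spleen IGRP+). Spleen cells were enriched for CD8 T cells by negative selection and sorted as CD44+, whereas islets were freed by collagenase perfusion, hand-picked, dissociated and kept warm before staining. Tissue, gate and handling therefore differed together between islet and spleen and cannot be told apart.

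Glycolysis splits glucose into pyruvate in the cytosol. CD8 T cells raise the pathway when antigen activates them, and much of the pyruvate then leaves the cell as lactate rather than entering mitochondria. Under low oxygen, prolyl hydroxylases stop marking HIF-1α for destruction, and HIF-1 binds a short motif with the core ACGTG or GCGTG near many genes of glycolysis. T cell receptor signalling can raise HIF-1α also when oxygen is plentiful.

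Of 26818 barcodes, 24117 (89.9%) passed the filters on mitochondrial UMIs (under 5%) and genes (200 to 3500 in islets, 200 to 2000 in spleen). This left 6429 and 8932 islet IGRP- cells, 1204 and 1598 islet IGRP+ cells and 3524 and 2430 spleen IGRP+ cells in Rounds 1 and 2, with 5880696 to 40469961 UMIs per library. The median cell held 3793 and 3869 UMIs in islet IGRP-, 3800 and 4216.5 in islet IGRP+, and 2590 and 2764.5 in spleen. Markers of CD8 T cells made 42.0 to 58.8 of every 10000 UMIs in all 6 libraries, and Cd4 at most 0.00173. The islet libraries also carried more pancreatic RNA, with 0.639 to 4.98 UMIs of acinar markers per 10000 against 0.0562 and 0.0651 in spleen, and 0.0561 to 1.55 UMIs of endocrine markers against 0.00104 and 0.00145, and their part in the results below was not tested. B cell markers made 0.615 to 1.27 and myeloid markers 1.54 to 1.98 UMIs per 10000. Between 2 and 64 barcodes were shared by a pair of libraries. Only 1 to 25 of these had paired receptor chains in both libraries, and none of those had the same clone.

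The 34 genes took up a larger share of the UMIs in islet IGRP+ cells than in either other group, in both rounds. In islet IGRP- cells they made 0.371% (exact 95% binomial interval 0.368 to 0.373) of all UMIs in Round 1 and 0.448% (0.446 to 0.450) in Round 2. In islet IGRP+ cells they made 0.543% (0.537 to 0.549) and 0.583% (0.578 to 0.589). In spleen IGRP+ cells they made 0.293% (0.290 to 0.297) and 0.385% (0.380 to 0.390). The groups' means were 0.409% ± 0.0549, 0.563% ± 0.0287 and 0.339% ± 0.0646 (SD, n = 2 libraries). The islet IGRP+ libraries stood above all 4 others, and in every group Round 2 was above Round 1. The intervals cover counting error alone, and no test was made on the sum. The difference between islet IGRP+ and islet IGRP- was 0.172 and 0.135 percentage points in the 2 rounds, a ratio of 1.46 and 1.30. Between islet IGRP+ and spleen it was 0.249 and 0.198 points, a ratio of 1.85 and 1.52. In a single islet IGRP+ cell the median share was 0.465% in Round 1, with quartiles at 0.356% and 0.595%, against medians of 0.310% in islet IGRP- and 0.283% in spleen. In Round 2 the medians were 0.514%, 0.377% and 0.376%, so the latter groups lay side by side at the level of the median cell. After every cell was thinned to 1000 UMIs, the medians were 0.5% in islet IGRP+ in both rounds and 0.3% and 0.4% in both other groups.

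8 genes made 79.8% of the UMIs of the set. They were Mif, a cytokine that hypoxia induces (13.6%), Ldha, which turns pyruvate into lactate (13.3%), Gapdh (11.8%), Aldoa (10.7%), Pkm (8.92%), Gpi1 (8.21%), Hif1a (6.81%) and Eno1 (6.52%). By role, lower glycolysis, from Gapdh to Pkm, held the largest gap in percentage points in both comparisons. Its 5 genes made 0.117% and 0.151% of UMIs in islet IGRP-, 0.214% and 0.231% in islet IGRP+ and 0.0922% and 0.156% in spleen. Lactate production and export made 0.0523% and 0.0651%, 0.0766% and 0.0905%, and 0.0340% and 0.0370% in the same order. The HIF system, mostly Hif1a, ran in another order, with 0.0317% and 0.0404% in islet IGRP-, 0.0215% and 0.0329% in islet IGRP+ and 0.0116% and 0.0133% in spleen. The 2 glucose transporters together made only 0.00265% to 0.00766% of UMIs and overlapped among all groups.

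**Figure D1:**
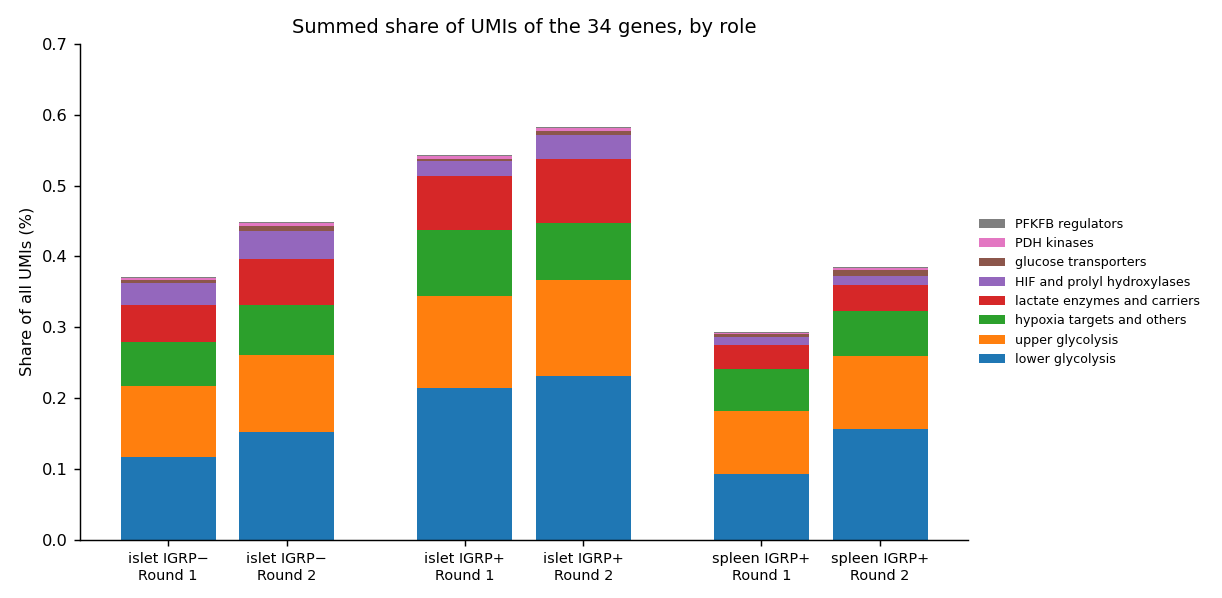
Share of all UMIs (percent, axis from 0) taken by the genes of each role, as stacked bars with 1 bar per library of islet IGRP-, islet IGRP+ and spleen IGRP+ in Rounds 1 and 2. Lower glycolysis reaches 0.214% and 0.231% in the islet IGRP+ libraries, while the HIF system is highest in islet IGRP-.

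The comparison of islet IGRP+ with spleen IGRP+ asks how cells of the same tetramer gate differ by tissue. Of 32 members with enough counts, 11 were higher and 1 was lower in islets (edgeR quasi-likelihood test on counts summed per library, adjusted p under 0.05), beside 13.7% and 12.9% of all 11277 genes tested. Aldoc and Vegfa were not tested for low counts. Both rounds of islet IGRP+ lay above both rounds of spleen in 17 members and below them in 2, beside 26.4% and 34.6% of all genes. The median member changed by 0.57 on the log2 scale and the median gene by -0.03. Levels below are UMIs per 10000 UMIs of the library. These are 5′ libraries, in which a molecule counts once whatever its length, and values are always given for Round 1 and then Round 2.

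In upper glycolysis 1 of 9 genes rose. Tpi1, triose phosphate isomerase, which interconverts both products of the aldolase step, stood at 1.43 and 1.08 UMIs per 10000 in islet IGRP+, at 0.646 and 0.645 in islet IGRP- and at 0.281 and 0.301 in spleen. The spleen libraries were lowest, the islet IGRP+ libraries highest, and no groups overlapped. The rise from spleen to islet IGRP+ was 4.67-fold (log2 2.22 ± 0.25 SE, adjusted p = 0.00422). Gpi1, the isomerase ahead of the phosphofructokinase step, had 4.04 and 4.20 against 2.90 and 3.04, and Aldoa, which splits the hexose, had 6.07 and 5.56 against 4.12 and 4.33. Neither passed the test (log2 differences of 0.57 and 0.56, adjusted p = 0.0679 and 0.0961), though their libraries did not overlap. Hk1, a hexokinase that makes glucose 6-phosphate, leaned towards spleen with 0.473 and 0.576 there and 0.308 and 0.479 in islet IGRP+ (log2 -0.33, adjusted p = 0.225).

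In lower glycolysis 4 of 5 genes rose. Gapdh, the dehydrogenase of triose phosphate, had 10.9 and 7.58 UMIs per 10000 in islet IGRP+, 5.24 and 4.21 in islet IGRP- and 3.18 and 3.06 in spleen. All islet IGRP+ values were above all others, and the spleen values were the lowest. It was 3.20-fold higher in islet IGRP+ than in spleen (log2 1.68 ± 0.33, adjusted p = 0.0173). Pgk1, the first enzyme of the pathway that yields ATP, stood at 2.15 and 2.09 in islet IGRP+, 1.39 and 1.47 in islet IGRP- and 1.02 and 1.18 in spleen (log2 1.05 ± 0.17, adjusted p = 0.00925). Pgam1, which moves the phosphate within phosphoglycerate, stood at 2.15 and 2.40, 1.37 and 1.76, and 1.11 and 1.35 (log2 0.99 ± 0.16, adjusted p = 0.00971). For Pgk1 the spleen values were below all islet values, and for Pgam1 the higher spleen value fell just short of the lower islet IGRP- value. Pkm, pyruvate kinase, had 4.52 and 6.04 in islet IGRP+, 3.0 and 4.03 in islet IGRP- and 2.70 and 3.73 in spleen. The islet IGRP+ values were above the rest, but islet IGRP- and spleen overlapped. Its rise of 1.76-fold had an adjusted p of 0.0306. Eno1, enolase, was the gene of this role that did not pass, with 1.74 and 5.03 in islet IGRP+, 0.740 and 3.68 in islet IGRP- and 1.21 and 6.25 in spleen (log2 -0.01 ± 0.93, adjusted p = 0.993). Its rounds were farther apart than its groups.

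Among the genes of lactate production and export, 3 of 4 rose. Ldha had 7.32 and 8.63 UMIs per 10000 in islet IGRP+, 4.92 and 6.13 in islet IGRP- and 3.33 and 3.61 in spleen. The groups did not overlap, and the rise from spleen was 2.44-fold (log2 1.29 ± 0.19, adjusted p = 0.00779). Slc16a3, the lactate exporter MCT4, showed the largest change of the 32 members tested, with 0.158 and 0.249 in islet IGRP+, 0.0878 and 0.146 in islet IGRP- and 0.00520 and 0.0174 in spleen, where the libraries held 5 and 12 UMIs of it. Both spleen values were far below every islet value. It was 20.3-fold higher in islet IGRP+ than in spleen (log2 4.34 ± 0.48, adjusted p = 0.00405). Slc16a1, the related transporter MCT1, which carries lactate in either direction, had 0.162 and 0.162 in islet IGRP+, 0.195 and 0.209 in islet IGRP- and 0.0531 and 0.0680 in spleen. Here islet IGRP- was the highest group and spleen the lowest, without overlap, and islet IGRP+ was 2.87-fold above spleen (log2 1.52 ± 0.19, adjusted p = 0.00496).

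The pyruvate dehydrogenase kinases, which hold pyruvate back from the mitochondrial dehydrogenase, moved in opposite directions. Pdk1 had 0.0136 and 0.0100 UMIs per 10000 in islet IGRP+ (8 UMIs in each library), 0.0350 and 0.0410 in islet IGRP- (102 and 166 UMIs) and 0.0593 and 0.0579 in spleen (57 and 40 UMIs). Its order was the reverse of that of Slc16a3, with spleen highest and no overlap, and islet IGRP+ was 4.72-fold below spleen (log2 -2.24 ± 0.35, adjusted p = 0.00931). Pdk3 had 0.347 and 0.417 in islet IGRP+, 0.270 and 0.341 in islet IGRP- and 0.134 and 0.204 in spleen. Both spleen values were the lowest and the islet groups overlapped no spleen value, though the lower islet IGRP+ value was close to the higher islet IGRP- value. The rise from spleen was 2.44-fold (log2 1.29 ± 0.19, adjusted p = 0.00743).

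Of the HIF system, Hif1a rose. It encodes the oxygen-regulated subunit of HIF-1 and had 2.04 and 3.01 UMIs per 10000 in islet IGRP+, 3.0 and 3.67 in islet IGRP- and 1.00 and 0.874 in spleen. The spleen values were the lowest, and 1 islet IGRP+ library matched the lower islet IGRP- library. Islet IGRP+ was 2.81-fold above spleen (log2 1.49 ± 0.23, adjusted p = 0.0085). The prolyl hydroxylase genes Egln1 and Egln3 did not pass, with log2 differences of -0.75 ± 0.70 (adjusted p = 0.464) and 0.99 ± 0.37 (adjusted p = 0.0967). Among the genes induced by hypoxia, Ankrd37, an ankyrin repeat gene, rose and had 0.218 and 0.187 in islet IGRP+, 0.117 and 0.154 in islet IGRP- and 0.0687 and 0.0637 in spleen. Its groups did not overlap (log2 1.70 ± 0.26, adjusted p = 0.00859, 3.25-fold). Others did not pass, as Ndrg1 with a log2 difference of 1.46 ± 0.56 (adjusted p = 0.103), and Ddit4, which restrains mTORC1, with -0.71 ± 0.30 (adjusted p = 0.133). Vegfa, the classical hypoxia target, was near absent, with 22 and 107 UMIs in islet IGRP- and 1 to 3 in each of the other 4 libraries. Glucose transporters and PFKFB genes gave small differences: Slc2a1 and Slc2a3 had log2 differences of -0.14 and -0.49, and Pfkfb3 and Pfkfb4 had 0.12 and 0.17, none past the test. Hk2, a hexokinase of activated cells, had 0.79 ± 0.50 (adjusted p = 0.288) and Pfkm, a phosphofructokinase subunit, -0.56 ± 0.43 (0.372). The remaining members tested, among them Pfkl, Pfkp, Bnip3 and Ldhb, lay within the range of the 20 that did not pass, from -0.75 to 1.46.

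**Figure D2:**
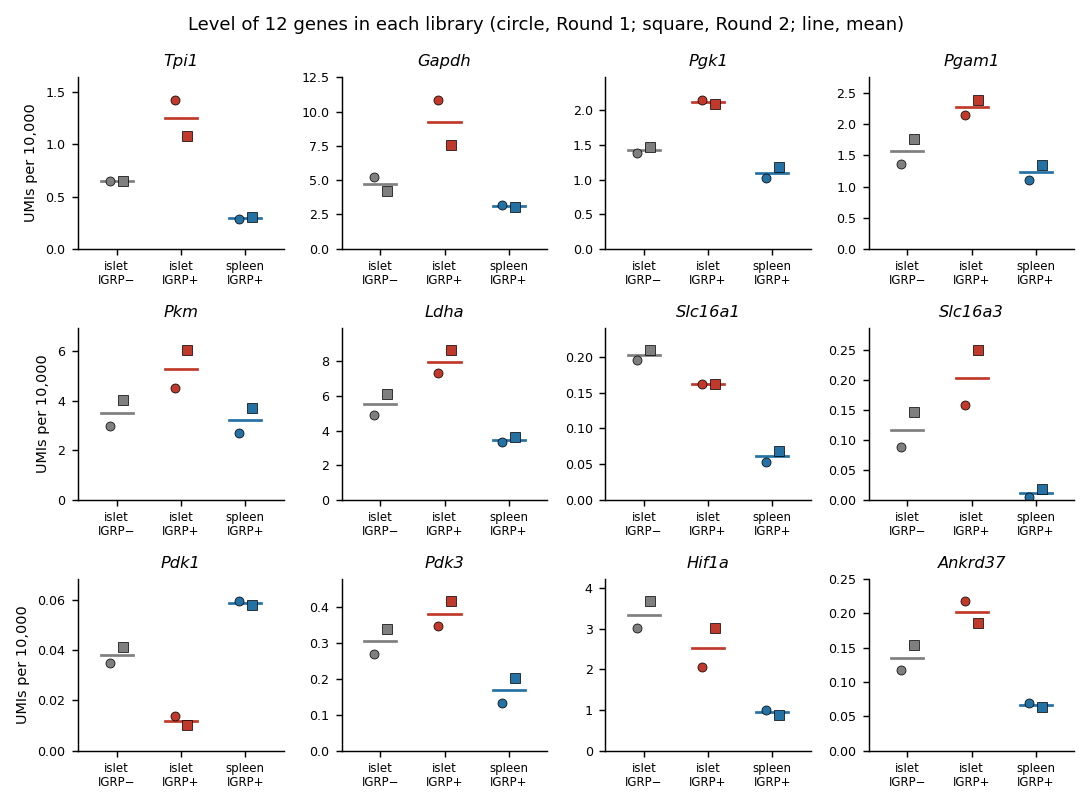
Level of the 12 genes that passed the test between islet IGRP+ and spleen IGRP+, in UMIs per 10000 UMIs of the library on linear axes from 0, with a circle for Round 1, a square for Round 2 and a line at the mean of each group. The spleen points are lowest for 10 of them, for Pkm they overlap the islet IGRP- points, and for Pdk1 the islet IGRP+ points are lowest (0.0136 and 0.0100).

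Leaving out 1 library leaves 1 in its group, so such fits are given by size of change alone. The genes named for each are those whose call changed in that fit. Without spleen Round 1, Gapdh, Pgk1, Pgam1, Pkm and Ldha had log2 differences of 1.83, 1.06, 0.96, 0.70 and 1.35. Pdk3 had 1.11 and Pdk1 -2.10. Without spleen Round 2, the same 5 genes had 1.53, 1.03, 1.00, 0.92 and 1.22, Hif1a had 1.28 and Ankrd37 1.53. Without islet IGRP+ Round 1, Gapdh had 1.24, Pkm 0.89 and Ndrg1 1.97. Pkm had 0.73 to 0.82 without any 1 of the other islet libraries. In an edgeR fit of the 4 libraries of the comparison alone, Pkm did not pass (adjusted p = 0.0567). DESeq2 called 15 higher and 1 lower, beside 16.8% and 12.6% of all genes. With the round as a block in the fit, 17 were higher and 6 lower, beside 28% and 27.1% of all genes. The block added Hk2, Gpi1, Aldoa, Egln3, Ndrg1 and Mif to the higher and Slc2a3, Hk1, Egln1, P4ha1 and Ddit4 to the lower genes. Of these, Hk2, Slc2a3, Hk1 and P4ha1 were not called by the block when cells in cycle were left out (adjusted p = 0.0661, 0.360, 0.0886 and 0.237).

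The promoters of 4 called members are shown because they hold the HIF-1 core motif and changed most among members that do. Each line gives 250 bases upstream of the transcription start from RefSeq (GRCm38.p6), read 5′ to 3′ in the direction of the gene, with capitals on ACGTG or GCGTG or their reverse complements CACGT and CACGC. Slc16a3 lies at chr11:120948817-120949066 on the plus strand, Pdk1 at chr2:71872974-71873223 on the plus strand, Ankrd37 at chr8:45999851-46000100 on the minus strand and Gapdh at chr6:125165774-125166023 on the minus strand.
Slc16a3: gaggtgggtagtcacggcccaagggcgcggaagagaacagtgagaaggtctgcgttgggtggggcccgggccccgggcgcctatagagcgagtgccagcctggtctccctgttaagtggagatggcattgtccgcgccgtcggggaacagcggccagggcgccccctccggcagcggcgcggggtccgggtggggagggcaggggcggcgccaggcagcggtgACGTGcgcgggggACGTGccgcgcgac
Pdk1: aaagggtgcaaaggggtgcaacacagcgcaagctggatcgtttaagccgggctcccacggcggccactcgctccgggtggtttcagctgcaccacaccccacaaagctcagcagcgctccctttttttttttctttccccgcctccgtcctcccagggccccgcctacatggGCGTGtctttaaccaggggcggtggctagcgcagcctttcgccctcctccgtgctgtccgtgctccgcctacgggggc
Ankrd37: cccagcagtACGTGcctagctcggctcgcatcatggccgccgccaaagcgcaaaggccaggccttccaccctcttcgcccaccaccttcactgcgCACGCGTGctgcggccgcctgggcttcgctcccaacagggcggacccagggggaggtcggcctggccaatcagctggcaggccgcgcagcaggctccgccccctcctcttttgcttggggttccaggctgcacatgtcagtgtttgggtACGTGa
Gapdh: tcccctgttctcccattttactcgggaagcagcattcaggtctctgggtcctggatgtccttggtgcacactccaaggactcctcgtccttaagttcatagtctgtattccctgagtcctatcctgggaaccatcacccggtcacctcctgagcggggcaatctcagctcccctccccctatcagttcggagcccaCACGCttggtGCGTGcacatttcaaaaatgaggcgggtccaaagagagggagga
Slc16a3 had ACGTG at -27 and -14 from the start, and Ankrd37 at -241 and -6. Pdk1 and Gapdh held GCGTG alone, and another promoter entry of Pdk1, not shown, held neither motif. In the stretch CACGCGTG of Ankrd37 the motif GCGTG is read on both strands, and ACGTG also lies inside the E-box CACGTG that other factors bind. Of the members, 32 had a promoter entry and 29 of these held either motif, in 37 of 46 entries (80.4%), beside 38.6% of the 32851 mouse entries of the same length (16.6% with ACGTG and 28.2% with GCGTG). Tpi1 held none. A match is a description of letters in this window, and no match says nothing about the factor.

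Within the islets, the comparison of tetramer-positive with tetramer-negative cells asks how binding to this antigen goes with the pathway. No member passed the test without a block, 0 higher and 0 lower of 32 by edgeR, beside 0.151% and 1.04% of all genes, and 6 higher and 2 lower had an unadjusted p under 0.05, beside 7.40% and 10.2% of all genes. DESeq2 called 5 higher (Tpi1, Pgk1, Pgam1, Pkm and Ldha, adjusted p = 0.0143 to 0.0447) and 1 lower (Pdk1, 0.0426), beside 1.85% and 3.24% of all genes. The rounds are paired, since both groups of a round come from the same pool of mice, and with the round as a block 11 members were higher and 5 lower, beside 14.4% and 16.1% of all genes. The islet IGRP+ libraries serve in this comparison and in that with spleen, so the lists are not independent. Both islet IGRP+ libraries lay above both islet IGRP- libraries for 12 members and below for 4, beside 24.9% and 21.3% of all genes.

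The enzymes from Tpi1 to Ldha were among the genes called with the block. Tpi1 differed by 0.98 on the log2 scale (adjusted p = 0.131 without and 0.000216 with the block), and Gapdh by 0.98 (0.217 and 0.000214). Pkm, Pgk1, Pgam1 and Ldha had log2 differences of 0.58, 0.58, 0.54 and 0.53, and block values of 0.00242, 0.00268, 0.00413 and 0.007. Slc16a3 had 0.79 (0.00265 with the block). Eno1 went from 0.60 ± 0.93 (adjusted p = 0.774) to 0.84 ± 0.18 (0.00369) when the block was added. Ankrd37, Mif and Aldoa were also called higher. The genes called lower with the block were Pdk1, at -1.70 ± 0.34 without it and -1.73 with it (adjusted p = 0.094 and 0.00291), Ndrg1 at -0.81 (0.00461 with the block), P4ha1, a collagen prolyl hydroxylase, at -0.51 (0.00881), Egln1 at -0.41 (0.0407) and Slc2a1 at -0.35 (0.0323). Hif1a had -0.42 and did not pass in either fit (adjusted p = 0.374 and 0.0576). Ldhb, at -1.03, and Egln3, at -0.83, were the next lowest after Pdk1 (adjusted p = 0.384 and 0.272). When cells in cycle were left out, the block no longer called Ankrd37 (0.32, adjusted p = 0.221), P4ha1 (-0.35, 0.0509) and Egln1 (-0.39, 0.0948), and it called Ddit4 higher (0.38, 0.0377). Without the block, leaving out islet IGRP- Round 1 or islet IGRP+ Round 2 turned the sign of Eno1 (-0.10 and -0.18), and leaving out islet IGRP+ Round 1 or islet IGRP- Round 2 turned the signs of Slc2a1 (0.12 and 0.33) and Egln1 (0.08 and 0.54).

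**Figure D3:**
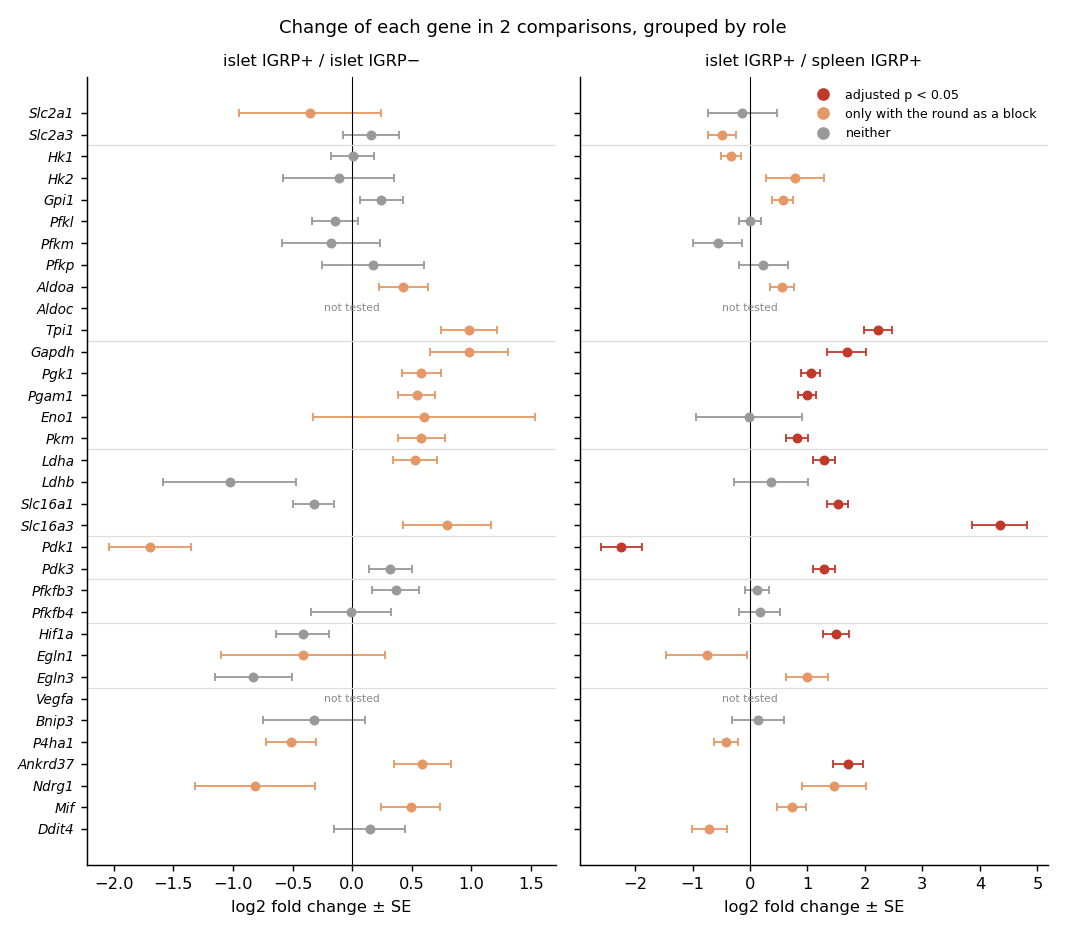
Log2 fold change with its standard error for each member tested, between islet IGRP+ and islet IGRP- and between islet IGRP+ and spleen IGRP+, from the edgeR fit without a block. Red points mark the 12 genes called without a block, all of them against spleen, orange points mark those called only with the round as a block, and Slc16a3 (4.34) and Pdk1 (-2.24) stand at the ends of the axis.

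The 3 groups kept the same order in both rounds for 20 of 32 members, beside 55.6% of all genes tested. The order spleen, islet IGRP-, islet IGRP+ from low to high held for 12 of them (37.5%, beside 13.4% of all genes), which were Tpi1, Gapdh, Gpi1, Ldha, Aldoa, Ankrd37, Pkm, Mif, Slc16a3, Pgam1, Pdk3 and Pgk1. For Slc16a1, Egln3, Hif1a and Ndrg1 islet IGRP- was highest and spleen lowest, beside 7.41% of all genes. Pdk1 and Egln1 were lowest in islet IGRP+ and highest in spleen, beside 15.8%. These orders are descriptions without a test.

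Clones shared by the tissues hold the T cell receptor fixed. A clone was defined by identical alpha and beta CDR3 nucleotide sequences, and 66 clone and round combinations with 62 different clones had cells in both islet IGRP+ and spleen, with 632 islet and 1375 spleen cells in Round 1 and 1134 and 1445 in Round 2. The sums of these cells gave 10 members higher and 1 lower in islets of 30 tested by edgeR, beside 8.65% and 7.63% of all genes. With the block 16 were higher and 5 lower (25.8% and 25.4%), and that fit leaves 1 residual degree of freedom. DESeq2 called 11 higher and 0 lower (9.58% and 6.27%). In edgeR 13 were higher and 2 lower at an unadjusted p under 0.05, beside 17.1% and 17.0% of all genes. Both islet sums lay above both spleen sums for 14 members and below them for 5, beside 25.1% and 36.1% of all genes. Tpi1 had 1.55 and 1.13 UMIs per 10000 in islet cells of these clones and 0.281 and 0.335 in spleen cells (log2 2.26 ± 0.28, adjusted p = 0.0107). Gapdh had 11.1 and 7.61 against 3.48 and 3.24 (1.62 ± 0.34, adjusted p = 0.0323), and Slc16a3 0.175 and 0.252 against 0.00803 and 0.0169 (4.17 ± 0.39, adjusted p = 0.00713). Hif1a had 1.81 and 2.85 against 1.11 and 0.883 (log2 1.31, adjusted p = 0.0313). The tissues did not overlap in any of these. Pgk1, Pgam1, Ldha, Slc16a1, Pdk3 and Ankrd37 were also higher, and Pdk1 was lower at -2.07 ± 0.52 (adjusted p = 0.0474). Pkm, called over all cells, missed here at 0.79 (adjusted p = 0.0699). Of the members called in neither set, Ndrg1 (1.53), Hk2 (0.86) and Mif (0.75) had the largest log2 differences, and Ddit4 (-0.88), Pfkm (-0.84) and Egln1 (-0.74) the lowest. Without spleen Round 1 or spleen Round 2, Gapdh had log2 differences of 1.80 and 1.47, and Ldha 1.44 and 1.27. Pgk1 had 1.12 and 1.01, Pgam1 0.93 and 0.91, Pdk3 1.05 and 1.22, and Pdk1 -1.77 and -2.31. Without islet IGRP+ Round 1, Pdk1 had -2.34, Pgam1 0.86 and Ndrg1 2.16. Without islet IGRP+ Round 2, Pdk1 had -1.71 and Ddit4 -1.34. Slc16a1 had 1.39 without spleen Round 1, and Hif1a had 1.06 without spleen Round 2. The genes named for left-out libraries are those whose call changed there.

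Clone by clone, the share of the 34 genes was higher in the islet cells for all 33 clones with at least 10 cells in each tissue, 14 in Round 1 and 19 in Round 2. Clones of a round share mice and libraries, so this count is a description. The shares ran from 0.477% to 0.627% in islet and 0.267% to 0.343% in spleen in Round 1, and from 0.505% to 0.648% and 0.363% to 0.433% in Round 2, so within a round no islet value reached down to a spleen value. The exact binomial intervals of the tissues were apart in all 33, but they cover counting error alone and not the spread between cells. The median gap was 0.235 and 0.184 percentage points. Of the 33 smaller clones, 28 had the higher share in islet and 5 in spleen. Cells in cycle were left out of a further count, in which all 23 clones with enough cells were higher in islet.

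Per gene, Gapdh, Pkm, Ldha and Mif were higher in islet in all 33 clones, Tpi1 in 32, Pgk1 in 31, Aldoa and Hif1a in 30, and Pgam1, Pdk3 and Ankrd37 in 29. Slc16a3 was higher in islet in 26 clones and in spleen in 1, and 29 clones had no UMI of it in spleen. Egln1 and Ddit4 ran the other way, higher in spleen in 28 clones each. Pdk1 was higher in spleen in 15 and in islet in 3 clones, and 15 had none in either tissue. Eno1 split by round, higher in islet in 12 of 14 clones in Round 1 and 4 of 19 in Round 2.

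For each round, the clone with the most cells over both tissues is shown by its CDR3 nucleotide sequences, as an example of a receptor found at both sites. The first, of Round 1, used TRAV16N with TRAJ49 and TRBV13-3 with TRBJ2-4, and had 86 islet and 265 spleen cells. The second, of Round 2, used TRAV16N with TRAJ42 and TRBV13-3 with TRBJ2-2, and had 193 islet and 323 spleen cells.
Round 1 alpha: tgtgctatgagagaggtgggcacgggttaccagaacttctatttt
Round 1 beta: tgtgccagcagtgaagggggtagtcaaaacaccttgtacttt
Round 2 alpha: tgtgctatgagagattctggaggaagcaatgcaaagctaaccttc
Round 2 beta: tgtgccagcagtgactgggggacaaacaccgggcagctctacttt
The members made 0.549% of UMIs in the islet cells and 0.326% in the spleen cells of the first, and 0.599% and 0.396% in those of the second.

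**Figure D4:**
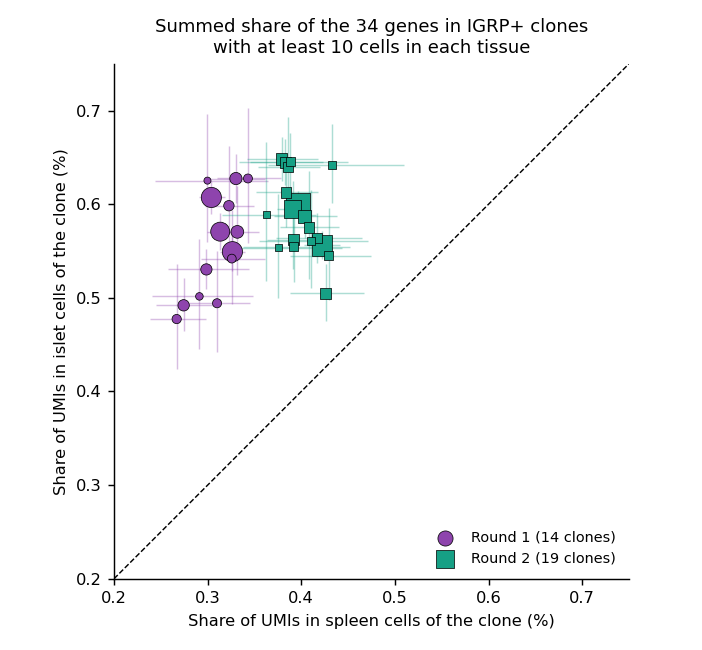
Share of UMIs in the 34 genes (percent) in spleen cells (horizontal axis) and in islet IGRP+ cells (vertical axis) of each of the 33 clones with at least 10 cells per tissue, with exact 95% binomial intervals, larger symbols for clones of more cells, circles for Round 1 and squares for Round 2. All 33 lie above the dashed line of equal shares, with 0.267% to 0.433% in spleen and 0.477% to 0.648% in islet.

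More islet IGRP+ cells were in cycle (32.9% and 34.1%, against 19.0% and 20.1% in islet IGRP- and 10.5% and 12.3% in spleen), by 43 cycle genes. Markers of activation made 22.7 and 30.3 UMIs per 10000 in islet IGRP+, 12.4 and 13.4 in islet IGRP- and 2.82 and 3.21 in spleen, and markers of resting cells 3.22 and 6.03, 15.2 and 21.8, and 15.9 and 22.8. Of the resting markers, Ccr7 was higher in islet IGRP+ (1.53 and 3.15) than in spleen (1.08 and 1.35), and highest in islet IGRP- (4.67 and 9.43). The other resting markers were lower in islet IGRP+ than in spleen. The part of cycling and of these markers in the differences of the 34 genes was not tested. Without cells in cycle, the member share was 0.511% and 0.560% in islet IGRP+, 0.347% and 0.427% in islet IGRP- and 0.293% and 0.385% in spleen. In cells in cycle it was 0.583% and 0.620%, 0.448% and 0.519%, and 0.301% and 0.385%. The order of the groups was the same in both sets of cells.

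Clone size went with the share inside the islet IGRP- group. In expanded clones, with at least 2 cells in their own library, it was 0.460% and 0.561% in islet IGRP- (1603 and 2524 cells), 0.566% and 0.594% in islet IGRP+ (661 and 1177 cells) and 0.314% and 0.404% in spleen. In singlet clones, with 1 cell in their own library, it was 0.300% and 0.366% in islet IGRP-, 0.566% and 0.627% in islet IGRP+, where only 12 and 14 cells stood behind the values, and 0.259% and 0.322% in spleen. Among expanded clones the gap between islet IGRP+ and islet IGRP- was 0.106 and 0.0335 points, against 0.172 and 0.135 over all cells. No member of 31 was called higher or lower in that comparison by edgeR or by DESeq2, beside 0% of all 10573 genes in edgeR. At an unadjusted p under 0.05 in edgeR, 0 were higher and 1 lower, beside 0.984% and 3.13% of all genes. DESeq2 called 0.0567% of all genes higher and 0.322% lower. The largest log2 differences were those of Gapdh (0.67), Slc16a3 (0.52) and Tpi1 (0.50), and the lowest those of Ndrg1 (-0.89), Pdk1 (-0.75) and Hif1a (-0.68). Of the members not called against spleen, Eno1 (0.45), Mif (0.37) and Slc2a3 (0.35) followed at the high end and Pfkm (-0.64) and Egln3 (-0.28) at the low end (all with an adjusted p of 0.905 or more). With the block 2 were higher (Gapdh at a log2 of 0.63, adjusted p = 0.0121, and Eno1 at 0.70, 0.0256) and 2 lower (Hif1a at -0.68, 0.00467, and Ndrg1 at -0.92, 0.0163), beside 1.59% and 3.91% of all genes.

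**Figure D5:**
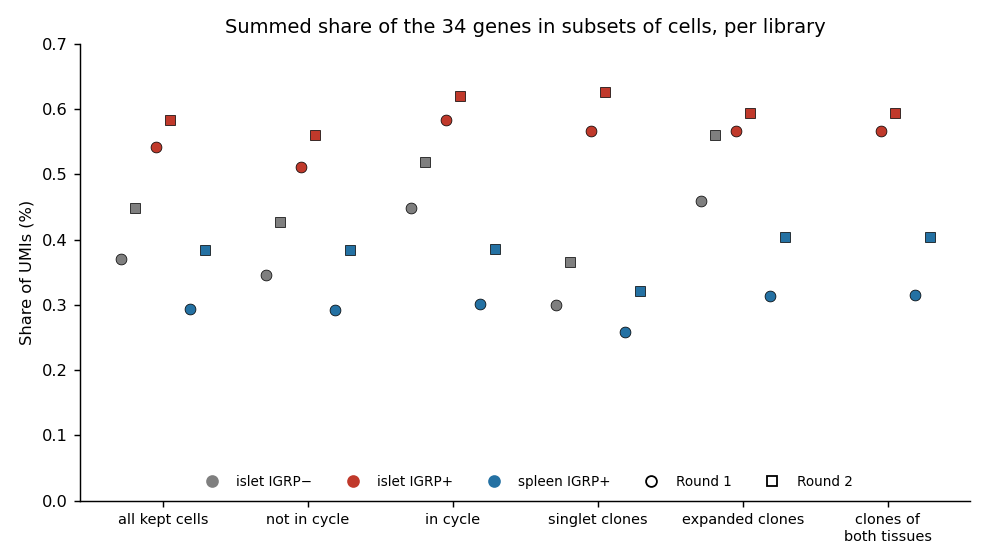
Share of UMIs in the 34 genes (percent, axis from 0) for all kept cells, cells out of and in cycle, singlet clones (1 cell), expanded clones and clones of both tissues, with 1 point per library, colour for the group and shape for the round. Expanded islet IGRP- cells (0.460% and 0.561%) lie nearer to islet IGRP+ cells (0.566% and 0.594%) than islet IGRP- cells of singlet clones do (0.300% and 0.366%).

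Around the 34 genes, 66 further genes of glycolysis, the pentose phosphate branch, pyruvate entry into mitochondria and HIF signalling were in the files and 49 were tested. Between islet IGRP+ and spleen 8 were higher and 2 lower (16.3% and 4.08%, beside 13.7% and 12.9% of all genes), and with the block 20 and 8 (40.8% and 16.3%, beside 28% and 27.1%). Mxi1, a MAX partner that opposes MYC and is induced by HIF, had 0.942 and 1.90 UMIs per 10000 in islet IGRP+, 0.723 and 1.40 in islet IGRP- and 0.118 and 0.190 in spleen (log2 3.30 ± 0.41, adjusted p = 0.00503). Arrdc4, a relative of Txnip, had 0.211 and 0.287 in islet IGRP+ and 0.0864 and 0.0825 in spleen (1.63, adjusted p = 0.00537). It was highest in islet IGRP-, with 0.540 and 0.487. Hmox1, Tigar, Rheb, Ero1l, Vhl and Pdha1 were also higher. Myc itself was lower, with 0.155 and 0.252 against 0.673 and 0.757 (-1.73, adjusted p = 0.00422), as was Txnip, a brake on glucose uptake (1.02 and 1.56 against 2.86 and 3.49, -1.22, adjusted p = 0.00865). Between the islet groups none of these passed without the block, and 9 were higher and 9 lower with it (18.4% each, beside 14.4% and 16.1% of all genes). Nuclear genes of oxidative phosphorylation made 2.95% and 2.55% of UMIs in islet IGRP+, 2.16% and 1.97% in islet IGRP- and 2.10% and 2.02% in spleen, so they too were highest in islet IGRP+. Of 80 tested by edgeR, 12 were higher (15%, beside 13.7% of all genes) and 0 lower than in spleen, with a median log2 difference of 0.48 beside 0.57 for the 32 members tested. Within the islets the median was 0.43 for this list and 0.15 for the members. It was 0.53 and 0.57 in clones of both tissues, and 0.34 and 0.12 in expanded clones. With the block 54 of the 80 were higher and 1 lower than in spleen (67.5% and 1.25%, beside 28% and 27.1% of all genes). Within the islets the block called 52 higher and 1 lower (65% and 1.25%, beside 14.4% and 16.1% of all genes), and 0 were called without it.

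Some members differed between rounds more than between groups. Slc2a1, Eno1 and Egln1 were more than 2-fold higher in Round 2 in all 3 groups, 3 of 32 beside 3.51% of all genes, with ratios of 2.44 to 2.74, 2.89 to 5.15 and 2.84 to 3.14. Reads of Gapdh can also fall on Gm3839, a near-identical copy, which had 5 to 23 UMIs in the Round 1 libraries and 281 to 6720 in Round 2, or 11.7% to 35.3% of the sum with Gapdh there. In Round 2 the copy made 35.3% of that sum in islet IGRP+, 28.3% in islet IGRP- and 11.7% in spleen. Gapdh levels are therefore uncertain between rounds and, in Round 2, between groups. With Gm3839 added to Gapdh, the difference to spleen was 1.86 on the log2 scale (adjusted p = 0.00352) and within the islets 1.02 (0.0798). Eno1b, a copy of Eno1, had 179 to 804 UMIs in Round 1 and 60 to 412 in Round 2, and adding it left Eno1 at -0.06 (adjusted p = 0.965) between tissues. With both copies added the share of the members was 0.546% and 0.626% in islet IGRP+, 0.373% and 0.466% in islet IGRP- and 0.299% and 0.390% in spleen. Rounds differed in the pool of mice and in the read lengths used for sequencing, which cannot be told apart. Why the rounds differed was not tested.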

How the data were processed

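UMI counts and T cell receptor contigs came from 6 libraries each of CD8 T cells, 2 per group, each from a pool of 10 mice. The authors deposited raw counts per gene and cell, made from 10x 5′ libraries on the mm10 genome. The file header names Cell Ranger 5.0.1 and the study's methods another version. Cells with under 5% mitochondrial UMIs and 200 to 3500 (islet) or 200 to 2000 (spleen) genes were kept, and their counts were summed per library (5880696 to 40469961 UMIs), without removal of ambient RNA or a doublet caller. Differences were tested with edgeR 4.0.16 (R 4.3.3, limma 3.58.1, TMM, filterByExpr, quasi-likelihood F-test, Benjamini-Hochberg over all genes tested, threshold 0.05), with all 6 libraries in 1 fit for whole groups and 4 sums for clones. Without a block, p-values measure the spread between rounds, in which the pool of mice and the sequencing differed together. By the paper's methods, RNA libraries of Round 1 were read with other cycle numbers than those of Round 2. DESeq2 1.42.0, the round as a block, other scalings, filters and left-out libraries were alternatives. Rounds pair the libraries, since each was 1 pool of mice, and deviations from group means correlated at 0.696, 0.715 and 0.63 (Pearson r across 11277 genes). The models were tested on simulated data. A cell in cycle had at least 3 UMIs of 43 cycle genes among 1000 drawn UMIs, and clones needed exactly 1 productive alpha and 1 productive beta chain. Clones, shares, intervals and sequences were handled with pandas 2.3.3, scipy 1.17.1 and numpy 2.4.6 under Python 3.11.15, and figures with matplotlib 3.10.9.

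The members and lists were chosen with earlier results of these data known. Full statistics are given for members with an adjusted p under 0.05 between islet IGRP+ and either other group without a block. Of the others, the 3 largest and smallest changes were to be named, and members named beyond that, clone counts included, were chosen after their values were seen. Promoters are those of up to 4 called members with the largest changes that hold either motif.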

Additional observations from a re-analysis of the deposited data

Results flagged for a closer look

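Cells over the upper limit on genes lay outside every comparison, and the 34 genes were a signal in them too. There were 260 and 478 such cells in islet IGRP-, 52 and 145 in islet IGRP+ and 95 and 168 in spleen (Rounds 1 and 2). The members made 0.632% and 0.720% of their UMIs in islet IGRP-, 0.729% and 0.838% in islet IGRP+ and 0.389% and 0.474% in spleen. Each value was above that of the kept cells of its library, and the groups had the same order as there. Whether these barcodes hold 1 cell or several was not tested.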

How the results depend on the processing

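Counts of calls moved most often with the term for the round. With the replicate block, the members called rose from 0 to 11 higher and from 0 to 5 lower within the islets, from 11 to 17 and from 1 to 6 against spleen, from 10 to 16 and from 1 to 5 in clones of both tissues, and from 0 to 2 and from 0 to 2 in expanded clones. Among all genes the block called 14.4% higher and 16.1% lower within the islets, and 28% and 27.1% against spleen. In clones of both tissues it called 25.8% and 25.4%, and in expanded clones 1.59% and 3.91%. With cells in cycle left out as well (added after the data were seen), the block lost Ankrd37, P4ha1 and Egln1 and gained Ddit4 within the islets. Against spleen it lost Hk2, Slc2a3, Hk1 and P4ha1. DESeq2 gave 5 and 1 within the islets, beside 1.85% and 3.24% of all genes. With no filter on low counts, edgeR called Tpi1 higher there (adjusted p = 0.0126) and Pdk1 lower (0.0155). Leaving out 1 library gave 4 to 10 higher and 0 to 1 lower against spleen, and 4 to 10 and 0 to 1 in clones of both tissues. The 1 lower gene of those clones, Pdk1, was not called with DESeq2 size factors, with DESeq2, without cells in cycle or with equal cells per clone. With no filter, Ddit4 was also called lower there. Library totals in place of TMM (added later) lost Pgam1, Slc16a1, Pdk3 and Hif1a in those clones. The median gene moved there from -0.02 to -0.14 on the log2 scale, and against spleen from -0.03 to -0.12. Against spleen, library totals lost Pkm (adjusted p = 0.105) and called Mif (0.0472). The summed share differed by 0.154 points within the islets and 0.224 against spleen. Without ribosomal, mitochondrial and T cell receptor genes in the denominator these were 0.180 and 0.303, without Gapdh 0.109 and 0.163, and without the 3 most abundant members 0.0625 and 0.0908. Of 1818 values of members under an alternative, 102 had the opposite sign, over 41 pairs of member and comparison, and 0 of the 102 were called in either of the fits compared. For the values given above, Eno1 against spleen turned from -0.01 to 0.20 with the block, 0.0153 with DESeq2 size factors, 0.0141 with DESeq2, 0.0002 with no filter, 0.20 with no upper limit on genes and 0.03 with the block and no cells in cycle, and Egln3 in expanded clones to 0.0696 without cells in cycle. Leaving out 1 library spread Eno1 from -0.79 to 1.39 against spleen, -0.18 to 2.07 within the islets and -0.32 to 2.01 in expanded clones, Slc2a1 from -0.86 to 0.58 and -1.08 to 0.33 in the first and second of these, and Egln1 from -1.53 to 0.0562 and -1.19 to 0.54. It spread Egln1 from -1.72 to 0.18 in clones of both tissues, Egln3 from -1.51 to 0.25 in expanded clones, Pfkfb3 from -0.0768 to 0.28 against spleen and Ddit4 from -0.21 to 0.44 within the islets. These left-out fits had no term for the round, so their groups were unbalanced over rounds. Slc2a1, Eno1 and Egln1 were over 2-fold higher in Round 2 in all groups. Causes were not tested. The 8 UMIs of Pdk1 in each islet IGRP+ library and the 5 and 12 UMIs of Slc16a3 in spleen limit the precision of their folds.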
